A study of Mus musculus with 12 samples.

Results

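Cells store iron in ferritin, import it through the transferrin receptor and export it through ferroportin, and the mRNAs for these proteins are controlled largely after transcription. Iron regulatory proteins, encoded by Aco1 and Ireb2, bind a short hairpin called the iron-responsive element (IRE) when iron is scarce. A bound IRE in the 5′ untranslated region, as in the ferritin mRNAs, blocks recruitment of the small ribosomal subunit, while bound IREs in the 3′ untranslated region of the transferrin receptor mRNA protect it from decay. Fbxl5 encodes the iron-sensing adaptor of a ubiquitin ligase that removes the iron regulatory proteins when iron is plentiful. Dividing T cells and T cell leukaemias depend on iron taken up through the transferrin receptor.

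The 8 genes described here, of 19937 genes with a symbol on the array, are those of ferritin and of cellular iron regulation. They were taken by symbol in 2 classes. The 3 genes whose mRNAs carry a 5′ IRE were Fth1 and Ftl1, the heavy and light ferritin chains, and Slc40a1, the iron exporter ferroportin. The other 5 were Tfrc, the transferrin receptor, Slc11a2, the divalent metal transporter that carries iron out of the endosome, the iron regulatory protein genes Aco1 and Ireb2, and Fbxl5. Per gene, the probe set with the highest mean over the 12 arrays was used, and each of the 8 had 1 probe set annotated to its symbol alone. Members were thus taken by symbol, with earlier results of these data known, and their probe sets selected on mean level. These means were log2 11.58 for Fth1, 6.44 for Ftl1, 5.53 for Slc40a1, 11.76 for Tfrc, 8.79 for Slc11a2, 9.26 for Aco1, 10.50 for Ireb2 and 9.69 for Fbxl5. They rest on different probes and set no gene above another. Genes below log2 6.0, the 40th percentile of all probe set means, were not tested, which kept 7 of the 8 members. Ftl1 lay just inside this filter on its mean over the 12 arrays, although its polysomal 4EGI-1 mean was 5.95, and Slc40a1 lay just outside it.

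Whole-transcript microarrays were run on 1 clone (#483) of mouse T cell acute lymphoblastic leukaemia, of C57BL6 strain. The inhibitor 4EGI-1, which keeps the cap-binding protein eIF4E from joining the scaffold eIF4G, was given at 100 µM for 2 h. Control cells are labelled untreated, and the protocol text names DMSO. Polysomal RNA came from cycloheximide-treated lysates, as pooled polysome fractions after sucrose gradient centrifugation. The reference was cytoplasmic RNA, which the sample titles call total and the design text has taken from whole cells. This gave 4 groups of 3 arrays: cytoplasmic control, cytoplasmic 4EGI-1, polysomal control and polysomal 4EGI-1. The replicates are called biological in the design text without word on separate cultures, so p-values measure only how far these arrays spread, and that spread may be technical.

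Arrays of a group correlated at 0.985 to 0.997, and the standard deviation of the median gene was 0.133 and 0.121 in the cytoplasmic groups against 0.0745 and 0.0761 in the polysomal groups. The values were normalised by the authors (RMA), and the array medians were close but not equal, so changes are read relative to the other RNAs on the array, and overall translation was not measured. Markers of T cells, 13 of 13 measured, lay above the filter, from Cd5 at 6.61 to Ptprc at 12.10 over the 12 arrays. Cd3e was at 11.82, Cd3g at 12.02 and Thy1 at 12.05. With 4EGI-1, 2 of the 13 fell in cytoplasmic RNA, Cd3e and Cd2 (7.79% of all genes tested fell). In polysomal RNA 3 of the 13 fell (12.1% of all genes) and 1 rose (13%). There Cd3e was at -0.41 ± 0.08 (limma, adjusted p = 0.00107) and Cd2 at -0.76 ± 0.12 (adjusted p = 0.000274). Of 6 macrophage markers 2 lay above the filter, Cd68 at 7.47 and Itgam at 6.74. Csf1r at 5.55, Adgre1 at 5.07, Lyz2 at 5.28 and Cd14 at 5.65 lay below. The list mean was 5.89 to 6.05, 6.06 to 6.27, 5.73 to 5.80 and 5.88 to 5.93 in the order of the groups above. Of the 2 macrophage markers above the filter, Cd68 rose with 4EGI-1, by 0.63 ± 0.11 in the cytoplasmic arrays (limma, adjusted p = 0.00085) and by 0.38 ± 0.11 in the polysomal ones (adjusted p = 0.0166). The part of these marker changes in the results was not tested. Of 4 B cell markers 2 lay above the filter, Pax5 at 6.67 and Cd79b at 6.19, and Cd79a at 4.70 and Ms4a1 at 4.42 lay below. The 3 erythroid markers measured lay just above it, Klf1 at 6.32, Alas2 at 6.74 and Epor at 6.98.

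Group means were fitted over all 12 arrays to 13180 genes, and 5 comparisons were taken from that one fit with limma and Benjamini-Hochberg adjustment over all genes tested, at a threshold of 0.05. The first was the 4EGI-1 effect in cytoplasmic RNA and the next was that in polysomal RNA. The third was their difference, polysomal minus cytoplasmic. The last ones set polysomal against cytoplasmic RNA, within control cells and within 4EGI-1 cells. Comparisons that use the same arrays are not independent of each other. The values with ± are standard deviations of 3 arrays for a group and standard errors from the fit for a change.

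In polysomal RNA 4 of the 7 tested iron genes changed with 4EGI-1, in opposite directions. Polysomal Fth1 fell, polysomal Tfrc and Aco1 rose, and polysomal Ireb2 fell. Polysomal Ftl1 did not pass on the dim probe set annotated to it alone. Read from either of its brighter, shared probe sets, described below, it fell (limma, adjusted p = 0.000425 and 0.000712). In cytoplasmic RNA Fbxl5 rose and Slc11a2 fell, and the other 5 tested members did not pass. The polysomal effect differed from the cytoplasmic one, by the test of the difference itself, for Fth1, Tfrc and Aco1. In control cells, 5 of the 7 tested members were lower in polysomal than in cytoplasmic RNA, and in 4EGI-1 cells Fth1 and Ftl1 were.

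**Figure D1:**
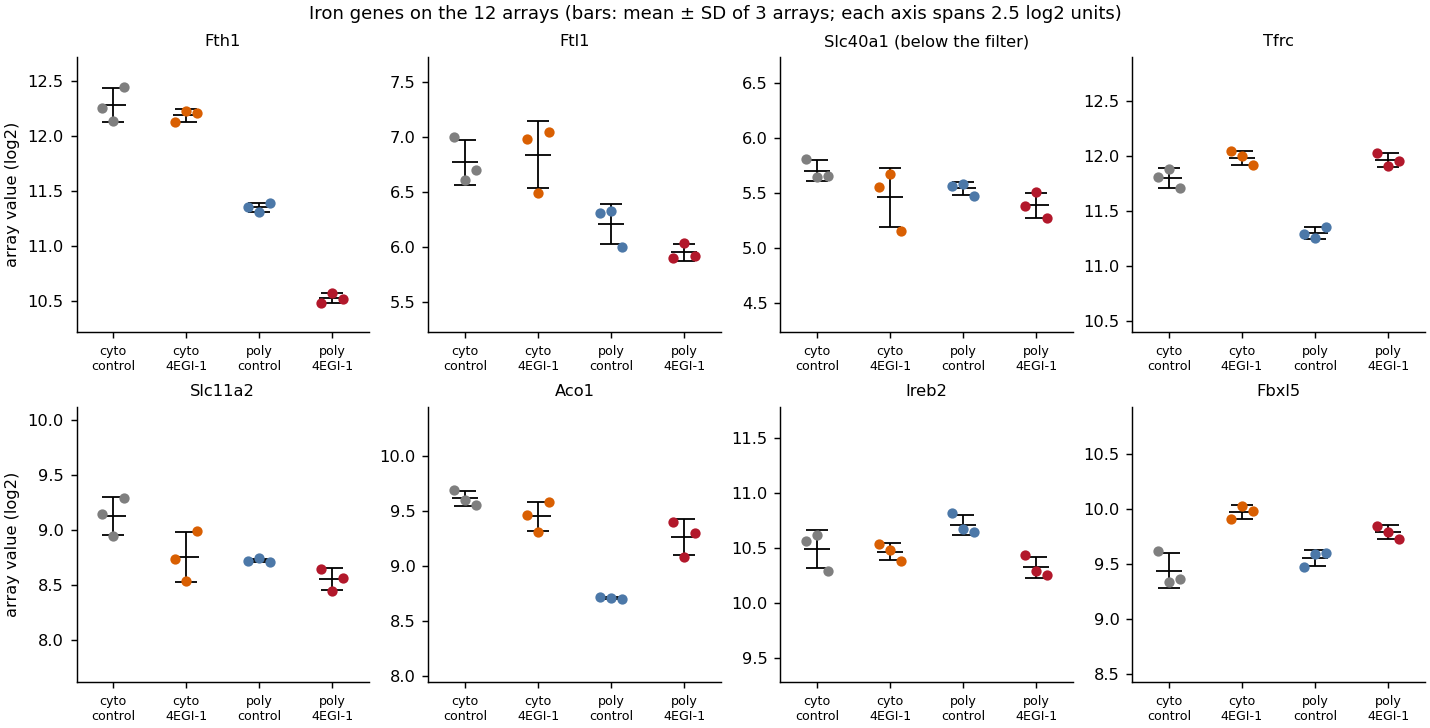
Log2 array value (y axis) of the 8 iron genes on each of the 12 arrays, by group on the x axis; points are arrays, bars the mean and standard deviation of 3 arrays, and each panel spans the same range of log2 units. Polysomal Fth1 drops from 11.35 to 10.52 with 4EGI-1, polysomal Tfrc climbs from 11.30 to 11.96 and polysomal Aco1 from 8.71 to 9.26.

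Read against all genes, these counts stand as follows. In cytoplasmic RNA 1 of 7 members was higher with 4EGI-1 (10.1% of all genes tested were) and 1 was lower (7.79% of all genes). In polysomal RNA 2 of 7 were higher (13% of all genes) and 2 were lower (12.1% of all genes). For the difference of the effects 2 of 7 were positive (2.31% of all genes) and 1 was negative (0.607% of all genes). In control cells none of the 7 was higher in polysomal than in cytoplasmic RNA by limma (16.7% of all genes were), with 1 at an unadjusted p under 0.05, and 5 were lower (12.2% of all genes). In 4EGI-1 cells none was higher by limma (9.56% of all genes), with 0 at an unadjusted p under 0.05, and 2 were lower (7.15% of all genes). The median change of the 7 members was -0.02, -0.17, -0.30, -0.50 and -0.19 in these comparisons, beside -0.03, -0.03, -0.01, -0.02 and -0.01 over all genes tested. In cytoplasmic RNA the members' counts with 4EGI-1 were near the shares of all genes, and with 7 members the counts in the other comparisons say little about the genes as a group. The members were chosen with earlier results of these data known, so a count above the share of all genes is a description and no evidence. The count for cytoplasmic RNA was small and depended on the settings, from 1 to 4 members.

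Fth1 encodes the ferritin heavy chain, the subunit that oxidises iron for storage. Its values were 12.25, 12.14 and 12.45 in cytoplasmic control RNA and 12.12, 12.23 and 12.21 in cytoplasmic 4EGI-1 RNA. In polysomal RNA they were 11.36, 11.31 and 11.39 in control cells and 10.48, 10.58 and 10.52 with 4EGI-1. The cytoplasmic groups overlapped, every polysomal control array was below every cytoplasmic array, and every polysomal 4EGI-1 array was lower again.

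The Fth1 change with 4EGI-1 was -0.09 ± 0.08 in cytoplasmic RNA, which did not pass (limma, adjusted p = 0.491), with a 95% interval of -0.27 to 0.08. In polysomal RNA it was -0.82 ± 0.08 (adjusted p = 5.29e-06), 1.77-fold lower and the 69th lowest change of the 13180 genes tested. The difference of the effects was -0.73 ± 0.12 (adjusted p = 0.00268), the 21st lowest. Polysomal RNA was lower than cytoplasmic RNA by 0.93 ± 0.08 on the log2 scale in control cells (adjusted p = 2.04e-06) and by 1.66 ± 0.08 in 4EGI-1 cells (adjusted p = 1.48e-08), which is 3.16-fold. In the latter comparison Fth1 was the 12th lowest gene. The polysomal fall and the difference passed under every alternative setting tried, and in these bulk samples fewer cells with the RNA in polysomes and less polysomal RNA per cell cannot be told apart.

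Ftl1 encodes the ferritin light chain, which helps to form the mineral core. It had 4 probe sets, of which only 1, a dim one, was annotated to Ftl1 alone, and this one stands for the gene. It read 6.996, 6.61 and 6.69 in cytoplasmic control RNA, 6.98, 6.49 and 7.04 in cytoplasmic 4EGI-1 RNA, 6.31, 6.32 and 6.001 in polysomal control RNA and 5.90, 6.04 and 5.91 in polysomal 4EGI-1 RNA. Cytoplasmic arrays overlapped between treatments and so did polysomal arrays, while each polysomal array lay below every cytoplasmic array of its treatment.

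On this probe set the cytoplasmic effect of 4EGI-1 on Ftl1 was 0.07 ± 0.14 (limma, adjusted p = 0.779) and the polysomal effect was -0.26 ± 0.14 (adjusted p = 0.21). The 95% intervals were -0.23 to 0.37 and -0.56 to 0.04. The difference of the effects was -0.33 ± 0.20 (adjusted p = 0.526). Polysomal Ftl1 was lower than cytoplasmic Ftl1, by 0.56 ± 0.14 in control cells (adjusted p = 0.00764) and by 0.89 ± 0.14 in 4EGI-1 cells (adjusted p = 0.00099). The polysomal 4EGI-1 mean of 5.95 was under the filter level, so the comparisons that use this group rest on dim signal.

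The other 3 Ftl1 probe sets are also annotated to the microRNA genes Mir692-2 and Mir692-3, so the rule that a probe set with several symbols names no gene left them out, and they were examined after their values had been seen. They are called A, B and C here, by falling mean. Both microRNA genes give the same mature microRNA. Whether these probe sets read it was not tested, and it is shown because they are annotated to its genes beside Ftl1. It is taken from RefSeq, build GRCm38.p6, at chr4:125504805-125504825 (plus strand) for Mir692-2 and chr13:74407121-74407141 (plus strand) for Mir692-3, with the seed, bases 2 to 8, in capitals.
mmu-miR-692: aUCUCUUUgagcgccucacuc

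Probe set A, the brightest of the 4, read 10.67, 10.54 and 10.88 in cytoplasmic control RNA and 10.47, 10.34 and 10.56 in cytoplasmic 4EGI-1 RNA. In polysomal RNA it read 9.35, 9.31 and 9.31 in control cells and 8.82, 8.69 and 8.81 with 4EGI-1. The cytoplasmic groups overlapped at 1 array, and the polysomal groups did not overlap. In place of the Ftl1 probe set, A gave a cytoplasmic 4EGI-1 effect of -0.24 ± 0.09 (limma, adjusted p = 0.0885) and a polysomal effect of -0.55 ± 0.09 (adjusted p = 0.000425). B gave -0.20 ± 0.10 (adjusted p = 0.229) and -0.59 ± 0.10 (adjusted p = 0.000712). Neither passed for the difference of the effects, which was -0.31 ± 0.13 for A (adjusted p = 0.291) and -0.39 ± 0.15 for B (adjusted p = 0.226). C lay below the filter, and its polysomal change with 4EGI-1 was -0.16, with no test. All 4 probe sets were lower in polysomal than in cytoplasmic RNA. The polysomal minus cytoplasmic value in control cells was -1.37 for A, -1.10 for B, -0.56 for C and -0.56 for the Ftl1 probe set. In 4EGI-1 cells it was -1.68, -1.495, -0.63 and -0.89. Both ferritin genes have near-identical processed copies in the mouse genome, and the share of signal that such copies give was not tested.

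**Figure D2:**
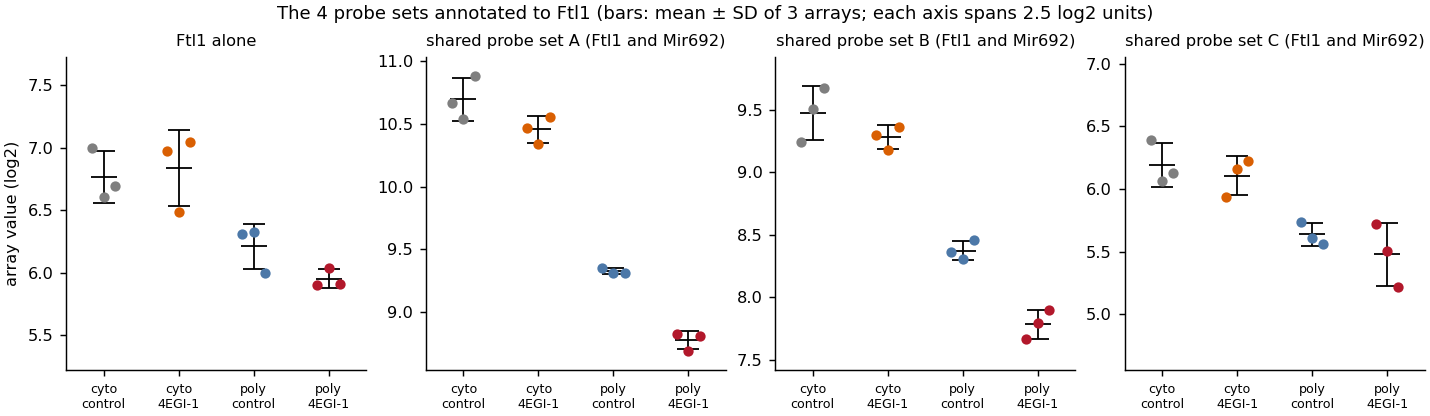
Log2 array value (y axis) of the 4 probe sets annotated to Ftl1, by group; points are arrays, bars the mean and standard deviation of 3 arrays. All 4 are lower in polysomal than in cytoplasmic RNA, and probe sets A and B step down from 9.32 to 8.77 and from 8.37 to 7.78 with 4EGI-1 in polysomal RNA.

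Slc40a1, the ferroportin gene, was below the filter, so its values are given as a description from a fit without the filter. It read 5.82, 5.65 and 5.66 in cytoplasmic control RNA, 5.56, 5.67 and 5.16 in cytoplasmic 4EGI-1 RNA, 5.57, 5.58 and 5.48 in polysomal control RNA and 5.39, 5.51 and 5.28 in polysomal 4EGI-1 RNA. The 4EGI-1 groups overlapped the control groups in both fractions. Its changes with 4EGI-1 were -0.24 ± 0.12 in cytoplasmic RNA and -0.15 ± 0.12 in polysomal RNA (limma without a filter, adjusted p = 0.241 and 0.493). The difference of the effects was 0.09 ± 0.17 (adjusted p = 0.927). Polysomal minus cytoplasmic Slc40a1 was -0.16 ± 0.12 in control cells (adjusted p = 0.426) and -0.07 ± 0.12 in 4EGI-1 cells (adjusted p = 0.778).

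Tfrc, the receptor that takes up transferrin-bound iron, moved the other way from Fth1 in polysomal RNA. It read 11.80, 11.88 and 11.70 in cytoplasmic control RNA and 12.04, 11.99 and 11.91 in cytoplasmic 4EGI-1 RNA. In polysomal RNA it read 11.29, 11.25 and 11.36 in control cells and 12.03, 11.90 and 11.95 with 4EGI-1. The polysomal control arrays were the lowest of the 12, and polysomal and cytoplasmic arrays of 4EGI-1 cells overlapped.

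Polysomal Tfrc rose by 0.66 ± 0.08 (limma, adjusted p = 1.61e-05), 1.58-fold. The cytoplasmic change was 0.19 ± 0.08 and did not pass (adjusted p = 0.111), with a 95% interval of 0.02 to 0.35 and no overlap between the groups' arrays. The difference of the effects was 0.48 ± 0.11 (adjusted p = 0.0264). In control cells polysomal Tfrc was lower than cytoplasmic Tfrc by 0.50 ± 0.08 (adjusted p = 0.000216), and in 4EGI-1 cells the value was -0.02 ± 0.08 (adjusted p = 0.883), with an interval of -0.18 to 0.14. The call for the difference was not firm. It was lost with no filter on low values (adjusted p = 0.0639) and without cytoplasmic control array 1 (0.0629), cytoplasmic 4EGI-1 array 2 (0.0512), polysomal control array 1 (0.0751) or 2 (0.0872), or polysomal 4EGI-1 array 1 (0.0842) or 3 (0.075).

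Slc11a2 moves iron across the endosomal membrane, and 1 form of its mRNA carries a 3′ IRE. Which forms its probe set reads was not examined. It read 9.15, 8.95 and 9.29 in cytoplasmic control RNA, 8.74, 8.54 and 8.99 in cytoplasmic 4EGI-1 RNA, 8.72, 8.74 and 8.71 in polysomal control RNA and 8.65, 8.45 and 8.57 in polysomal 4EGI-1 RNA. The cytoplasmic groups overlapped, and the polysomal groups did not. The cytoplasmic fall was 0.37 ± 0.11 on the log2 scale (limma, adjusted p = 0.0308) and the polysomal change -0.17 ± 0.11 (adjusted p = 0.31). The difference was 0.20 ± 0.16 (adjusted p = 0.666), with an interval of -0.14 to 0.54, so the fractions were not shown to differ. Polysomal Slc11a2 was lower than cytoplasmic by 0.40 ± 0.11 in control cells (adjusted p = 0.0134) and the value was -0.20 ± 0.11 in 4EGI-1 cells (adjusted p = 0.242).

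The Slc11a2 calls rested on few arrays. The cytoplasmic fall no longer passed without cytoplasmic control array 1 (adjusted p = 0.0828) or 3 (0.12), without cytoplasmic 4EGI-1 array 1 (0.0889) or 2 (0.142), with arrays centred on their medians (0.0547), with no filter (0.0555), or from its own 6 arrays (0.134). The lower polysomal value in control cells was lost with centred arrays (0.0821) and without cytoplasmic control array 3 (0.0558).

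Aco1 encodes iron regulatory protein 1, which acts as the cytosolic aconitase when it holds an iron-sulfur cluster. Its values were 9.69, 9.60 and 9.56 in cytoplasmic control RNA and 9.46, 9.31 and 9.58 in cytoplasmic 4EGI-1 RNA. In polysomal RNA they were 8.71, 8.71 and 8.70 in control cells and 9.40, 9.08 and 9.30 with 4EGI-1. The 3 polysomal control arrays were the lowest of the 12, and the other 3 groups overlapped in part.

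Polysomal Aco1 rose by 0.55 ± 0.09 (limma, adjusted p = 0.000465), 1.47-fold, while the cytoplasmic change was -0.17 ± 0.09 (adjusted p = 0.25, interval -0.36 to 0.03). The difference of the effects was 0.72 ± 0.13 (adjusted p = 0.00662), the 137th highest, and it passed under every alternative setting tried. In control cells polysomal Aco1 was lower than cytoplasmic Aco1 by 0.91 ± 0.09 (adjusted p = 7.21e-06), 1.88-fold. In 4EGI-1 cells the value was -0.19 ± 0.09 (adjusted p = 0.185).

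Ireb2 encodes iron regulatory protein 2, which is controlled mainly through its degradation. It read 10.56, 10.61 and 10.29 in cytoplasmic control RNA, 10.53, 10.48 and 10.38 in cytoplasmic 4EGI-1 RNA, 10.81, 10.67 and 10.64 in polysomal control RNA and 10.43, 10.29 and 10.25 in polysomal 4EGI-1 RNA. The polysomal control arrays were the highest of the 12, and the other 3 groups overlapped. Polysomal Ireb2 fell by 0.39 ± 0.09 (limma, adjusted p = 0.007), 1.31-fold, and the cytoplasmic change was -0.02 ± 0.09 (adjusted p = 0.908). The difference of the effects, -0.36 ± 0.13, did not pass (adjusted p = 0.215), although its unadjusted interval was -0.65 to -0.08. Polysomal minus cytoplasmic Ireb2 was -0.14 ± 0.09 in 4EGI-1 cells (adjusted p = 0.336). In control cells it was 0.22 ± 0.09 and did not pass (adjusted p = 0.0971), but did so with arrays centred on their medians (0.023) and without cytoplasmic control array 2 (0.0446).

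The mRNAs of the iron regulatory proteins thus changed in opposite directions in polysomal RNA, Aco1 upward and Ireb2 downward. That contrast stands on each gene's own test.

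Fbxl5 was the only member whose rise in cytoplasmic RNA passed. It read 9.62, 9.33 and 9.36 in cytoplasmic control RNA, 9.91, 10.02 and 9.99 in cytoplasmic 4EGI-1 RNA, 9.47, 9.59 and 9.60 in polysomal control RNA and 9.85, 9.79 and 9.73 in polysomal 4EGI-1 RNA. In both fractions every 4EGI-1 array was above every control array. The cytoplasmic rise was 0.53 ± 0.09 (limma, adjusted p = 0.000645), 1.45-fold. The polysomal change of 0.23 ± 0.09 did not pass (adjusted p = 0.0636), but did so from its own 6 arrays (0.0144), with array weights (0.0164) and without cytoplasmic control array 1 (0.0343). The difference of the effects was -0.30 ± 0.12 (adjusted p = 0.289), so a weaker effect in polysomal RNA was not shown. Polysomal minus cytoplasmic Fbxl5 was 0.12 ± 0.09 in control cells (adjusted p = 0.361) and -0.18 ± 0.09 in 4EGI-1 cells (adjusted p = 0.171).

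**Figure D3:**
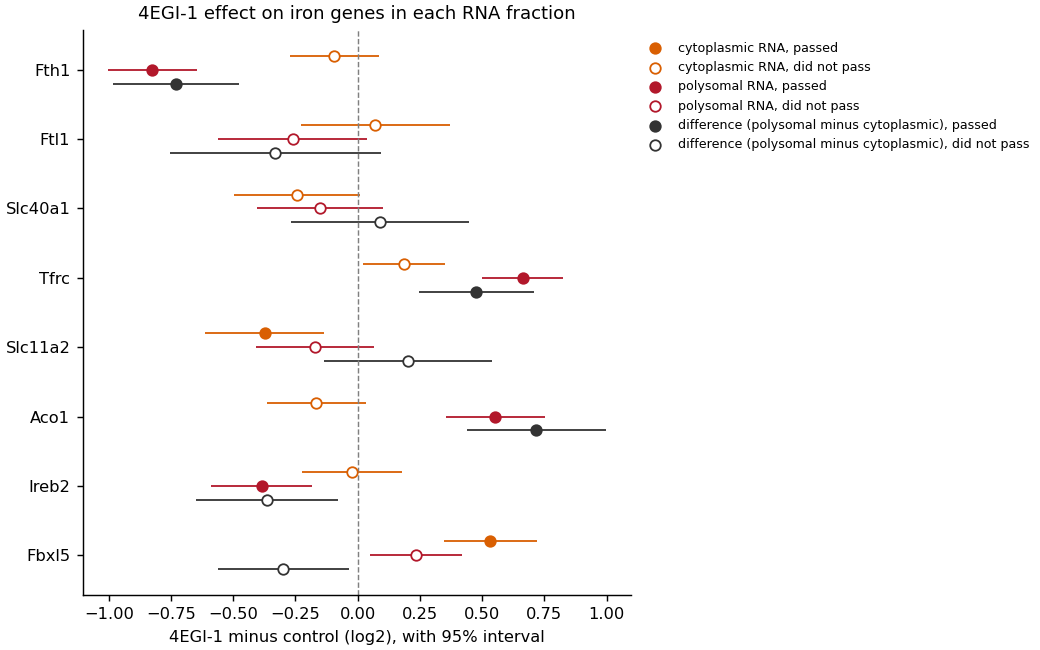
Change with 4EGI-1 (x axis, log2, with the 95% interval) of each iron gene in cytoplasmic RNA, in polysomal RNA and as the difference of these effects; filled points passed at an adjusted p under 0.05. Slc40a1, below the filter, comes from the fit without it. Fth1 lies at -0.82 in polysomal RNA, and Tfrc and Aco1 at 0.66 and 0.55.

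Ordered by level, the 4 groups of each gene fell out differently. For Fth1 the order was cytoplasmic control and cytoplasmic 4EGI-1, which did not differ beyond their spread, then polysomal control, then polysomal 4EGI-1. For Ftl1, on its dim probe set, both cytoplasmic groups came before both polysomal groups, with no difference shown within a fraction. On the shared probe sets A and B polysomal 4EGI-1 was below polysomal control. For Tfrc and Aco1 polysomal control was alone at the bottom, for Ireb2 it was alone at the top, and for Fbxl5 the 4EGI-1 groups stood above the control groups in both fractions. Of these steps, polysomal against cytoplasmic Ireb2 in control cells did not pass (limma, adjusted p = 0.0971). Nor did the polysomal change of Fbxl5 (adjusted p = 0.0636). Slc11a2 was highest in cytoplasmic control RNA, and its other 3 groups, from 8.55 to 8.76, were close together.

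Set side by side by class, the tested mRNAs with a 5′ IRE (Fth1 and Ftl1) had a median polysomal change with 4EGI-1 of -0.54, and the other 5 genes had 0.23. In cytoplasmic RNA these medians were -0.01 and -0.02, and for the difference of the effects -0.53 and 0.20. Polysomal minus cytoplasmic medians were -0.74 and -0.40 in control cells and -1.27 and -0.18 in 4EGI-1 cells. Of the 2 tested members with a 5′ IRE, Fth1 passed for the polysomal fall and for the difference, and Ftl1, on its dim probe set, for neither. That probe set did pass for the polysomal fall from its own 6 arrays (limma, adjusted p = 0.036). The shared probe sets A and B passed for the polysomal fall (adjusted p = 0.000425 and 0.000712) and not for the difference. Of the other 5 genes, 2 passed upward and 1 downward in polysomal RNA.

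A per-array contrast of the classes was taken over all 8 genes, as the mean of Fth1, Ftl1 and Slc40a1 minus the mean of the other 5. Its level depends on the probes, and only its shifts between groups can be read. It was -1.81, -1.94 and -1.78 in cytoplasmic control RNA, -1.92, -1.94 and -2.03 in cytoplasmic 4EGI-1 RNA, -2.06, -2.06 and -2.18 in polysomal control RNA and -2.81, -2.53 and -2.73 in polysomal 4EGI-1 RNA. The polysomal 4EGI-1 arrays were the lowest of the 12. The contrast shifted with 4EGI-1 by -0.12 in cytoplasmic RNA (SD 0.11) and by -0.59 in polysomal RNA (SD 0.16), and the difference of these shifts was -0.47 (SD 0.20), each SD being the group SDs combined as the root of their summed squares. Polysomal minus cytoplasmic, it was -0.25 in control cells (SD 0.11) and -0.73 in 4EGI-1 cells (SD 0.16). These are descriptions without a test, and they depend on the choice of members, which was made with earlier results of these data known. With the median of each class in place of the mean the shifts were -0.29 in cytoplasmic RNA, -0.21 for the difference and -0.49 for polysomal minus cytoplasmic in control cells. Without Slc40a1 the shift was -0.04 in cytoplasmic RNA, and polysomal minus cytoplasmic it was -0.45 in control cells and -1.13 with 4EGI-1. The values combine a fall of Fth1 with a rise of Tfrc and Aco1, while Ireb2, of the other class, also fell in polysomal RNA.

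**Figure D4:**
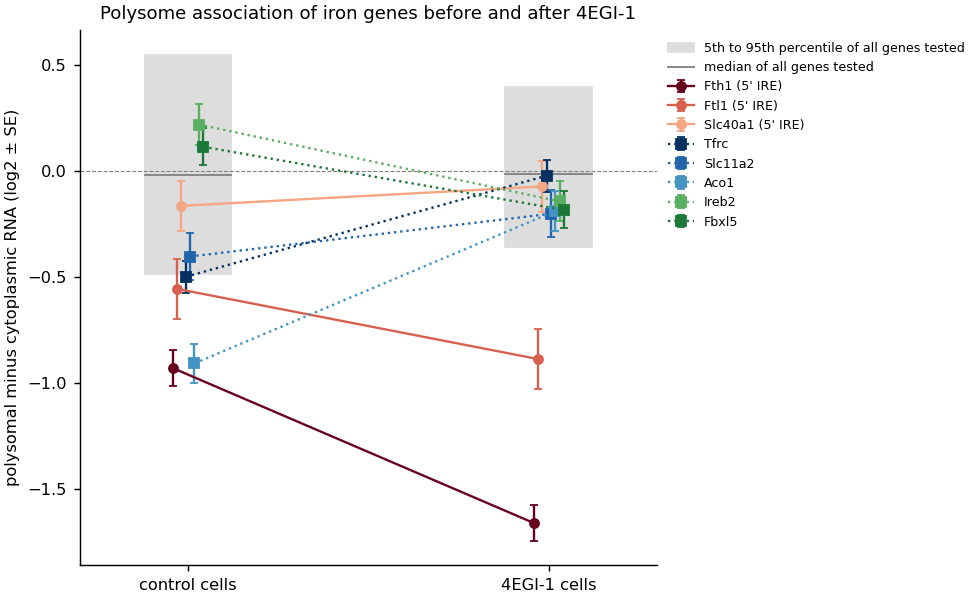
Polysomal minus cytoplasmic RNA (y axis, log2, ± standard error) of each iron gene in control and in treated cells (x axis); lines join the values of a gene, and grey boxes span the 5th to 95th percentile of all genes tested. Fth1 goes from -0.93 to -1.66, and Aco1 and Tfrc rise from -0.91 and -0.50 to -0.19 and -0.02.

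Across all genes tested, polysomal minus cytoplasmic values ran from -0.49 to 0.55 between the 5th and the 95th percentile in control cells, and from -0.36 to 0.40 in treated cells. Fth1, Ftl1, Tfrc and Aco1 were below this range in control cells. Fth1 and Ftl1 were below it in 4EGI-1 cells, and Tfrc and Aco1 were within it. The slope of a line in that plot is the difference of the 4EGI-1 effects, so it is the same measure as above and no further evidence.

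The list of other mRNAs with a 5′ IRE gave no called change. Of 4 on the list, 3 were tested: Alas2, the erythroid enzyme that starts heme synthesis, Epas1, an oxygen-regulated transcription factor, and Ndufs1, a subunit of respiratory complex I. None passed in any of the 5 comparisons by limma. At an unadjusted p under 0.05 there was 1, Alas2, higher in cytoplasmic RNA (0.26 ± 0.09, adjusted p = 0.0548), and 0 in each of the other comparisons. In polysomal RNA their changes with 4EGI-1 were 0.15 ± 0.09 for Alas2 (adjusted p = 0.254), -0.16 ± 0.10 for Epas1 (adjusted p = 0.303) and 0.14 ± 0.09 for Ndufs1 (adjusted p = 0.279). The Ndufs1 probe set was well above the filter, with a mean of 10.20, while those of Alas2 and Epas1 were dim, at 6.74 and 6.97. Of 2 other mRNAs with a 3′ IRE only Cdc14a, a phosphatase, was tested. It was higher in polysomal than in cytoplasmic RNA, both in control cells (0.30 ± 0.09, adjusted p = 0.0159) and with 4EGI-1 (0.31 ± 0.09, adjusted p = 0.0268), with no called change with 4EGI-1.

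Among 21 tested genes for iron uptake, export and handling within the cell, 1 rose (10.1% of all genes did) and 1 fell (7.79%) with 4EGI-1 in cytoplasmic RNA. In polysomal RNA 3 rose (13% of all genes) and 1 fell (12.1%), and 1 was positive for the difference of the effects (2.31%). These counts were near or under the shares of all genes, and the medians were -0.08, -0.09 and 0.01. The gene with the called difference was Ncoa4, the receptor that delivers ferritin to autophagy. The cytoplasmic value of Ncoa4 was -0.12 ± 0.13 (limma, adjusted p = 0.581) and its polysomal rise 0.65 ± 0.13 (adjusted p = 0.00144), a difference of 0.77 ± 0.18 (adjusted p = 0.0314). In control cells its polysomal value was 0.59 ± 0.13 lower than the cytoplasmic one (adjusted p = 0.00281). The remaining genes behind these small counts were named after their values were seen. Cybrd1, a ferric reductase, rose by 0.79 ± 0.10 in the cytoplasmic arrays (adjusted p = 8.69e-05) and by 0.96 ± 0.10 in polysomal RNA (adjusted p = 8.03e-06). Slc25a37, the mitochondrial iron importer, rose in polysomal RNA by 0.25 ± 0.08 (adjusted p = 0.0317). Steap3, the endosomal ferric reductase, fell in cytoplasmic RNA by 0.54 ± 0.15 (adjusted p = 0.022). Pcbp2, an RNA-binding protein that also serves as an iron chaperone, fell in polysomal RNA by 0.42 ± 0.08 (adjusted p = 0.000736).

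Of the 4 genes for partners of Fbxl5 in its ubiquitin ligase and for Herc2, a ligase that acts on Fbxl5, only Herc2 passed for a change with 4EGI-1. Its cytoplasmic rise was 0.31 ± 0.08 (limma, adjusted p = 0.0179) and its polysomal rise 0.43 ± 0.08 (adjusted p = 0.00131). Of all genes tested, 10.1% rose in cytoplasmic RNA and 13% in polysomal RNA. At an unadjusted p under 0.05, 1 of the 4 was lower in cytoplasmic RNA and 2 in polysomal RNA. Skp1, a subunit of the ligase, was at -0.33 ± 0.12 (adjusted p = 0.0772) and -0.34 ± 0.12 (adjusted p = 0.0546), and Rbx1, another, was at -0.31 ± 0.12 in polysomal RNA (adjusted p = 0.08). Skp1 and Rbx1 were higher in polysomal than in cytoplasmic RNA in control cells, by 0.58 ± 0.12 (adjusted p = 0.00215) and 0.60 ± 0.12 (adjusted p = 0.00209), and Herc2 was lower there, at -0.39 ± 0.08 (adjusted p = 0.00266).

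The 5 genes whose pattern over the 12 arrays was most like that of Fth1, by Pearson correlation, were Lmbr1l (0.974), ND3 (0.968), Tmem183a (0.968), Map3k12 (0.967) and Rpl23a (0.967). Their polysomal changes with 4EGI-1 ran from -0.63 for ND3 to -0.17 for Map3k12, all smaller than that of Fth1. Those most like Tfrc were Ascc3 (0.994), Lars (0.993), Rttn (0.992), Ttc37 (0.989) and Setdb1 (0.988). Their polysomal changes ran from 0.67 for Setdb1 to 1.47 for Lars, and all 5 were lower in polysomal than in cytoplasmic RNA of control cells, by 0.49 to 1.14. Among the members Fth1 and Ftl1 correlated at 0.881, Tfrc and Aco1 at 0.790, Tfrc and Ireb2 at -0.664, and Fth1 and Tfrc at 0.053. The 12 arrays are 4 groups of 3, so these values mostly describe the group means. Genes picked for their likeness to a member share its directions largely through that choice.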

How the data were processed

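The authors deposited 1 log2 value per probe set and array, made with RMA per the submitters' processing notes. No source used here gives the RMA version or tells if all 12 arrays were normalised jointly. Of 34760 probe sets, 21640 had 1 gene symbol in the platform annotation, which can be old, 1321 had several (no gene was named from these) and 11799 had none. Symbols were updated by Entrez number through RefSeq (GRCm38.p6), and gene coordinates were left out, since the annotation names no build.

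Probe sets with 1 symbol were reduced to 1 per gene by the highest mean over the 12 arrays. The filter at the 40th percentile left 13180 of 19937 genes. With R 4.3.3, limma 3.58.1 (lmFit and untrended eBayes, prior of 6.83 degrees of freedom and standard deviation 0.117) fitted 4 group means over 12 arrays. The log2 differences are fold changes relative to the other RNAs on an array. Precision is limited by how many arrays there are. The scripts were tested on simulated data.

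The members, the gene lists and the tests were chosen with earlier results of these data known. Named beyond the members were genes of a list that passed for the difference of effects, otherwise up to 3 with the smallest p in a treatment comparison, and the 5 genes most correlated with Fth1 and with Tfrc, leaving out predicted symbols and small RNAs. Alternatives were another filter, normalization, variance prior, array weights, a replicate block, each array left out and, added after seeing the data, the shared Ftl1 probe sets. No IRE sequence was analysed here.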

Additional observations from a re-analysis of the deposited data

Results flagged for a closer look

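For 3 genes the 4EGI-1 effect in polysomal RNA differed from that in cytoplasmic RNA by limma's test of the difference, with Benjamini-Hochberg adjustment over all genes tested. The difference was -0.73 for Fth1 (adjusted p = 0.00268; -0.81 to -0.66 over the alternatives, with adjusted p from 3.88e-05 to 0.013). It was 0.72 for Aco1 (adjusted p = 0.00662; 0.65 to 0.81, with adjusted p from 9.73e-05 to 0.0274). For Tfrc it was 0.48 (adjusted p = 0.0264), which passed with all arrays and was lost in 7 alternatives. Cytoplasmic arrays varied more than polysomal arrays, with a median gene standard deviation of 0.133 and 0.121 against 0.0745 and 0.0761, and the part of this in the 3 results was not tested.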

How the results depend on the processing

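Of 823 re-computed changes of single members, 792 kept their side of the threshold, among them 13 that changed sign where neither value passed, 16 lost a call, 15 gained one and 0 reversed a called value. Part of this agreement was fixed in advance. A change kept its estimate where the array left out was not part of its comparison. Another Ftl1 probe set left the estimates of the other members as they were. The mean of all probe sets of a gene was the same value for each member. The calls lost were those of Tfrc for the difference of the effects and of Slc11a2, given with the results above. Gained were Tfrc (adjusted p = 0.0436 with a trended robust prior, 0.00839 with array weights) and Aco1 (0.0315 with array weights) in cytoplasmic RNA, Fbxl5 (above) and Ftl1 (0.036 from its own 6 arrays) in polysomal RNA, Ireb2 for the difference (0.0178 with array weights), Aco1 and Ireb2 for polysomal minus cytoplasmic RNA in 4EGI-1 cells (0.0458 and 0.03 with array weights), and Ireb2 for the same in control cells (0.023 with centred arrays, 0.0446 without cytoplasmic control array 2).

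The number of members called with 4EGI-1 in cytoplasmic RNA, 2, was 4 with array weights, 1 with centred arrays, with no filter or from the comparison's own 6 arrays, and 1 to 2 with an array left out. For polysomal minus cytoplasmic RNA in 4EGI-1 cells, 2, it was 4 with array weights and 1 with a filter at the 50th percentile or with Ftl1 from probe set C, both of which put Ftl1 below the filter. The other member counts stayed within 1.5 times. The contrast of the classes with Ftl1 from probe set A was -0.22 for 4EGI-1 in cytoplasmic RNA, -0.53 for polysomal minus cytoplasmic RNA in control cells and -0.99 with 4EGI-1, and from probe set B -0.44 and -0.93 for the last 2, and -0.70 for 4EGI-1 in polysomal RNA. With the median of the members it was -0.29 in cytoplasmic RNA, -0.21 for the difference and -0.49 in control cells. Without Slc40a1 it was -0.04 for 4EGI-1 in cytoplasmic RNA, -0.72 for 4EGI-1 in polysomal RNA, -0.68 for the difference, -0.45 in control cells and -1.13 in treated cells.

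Replicate numbers are shared between the groups. Of 18 same-numbered pairs of arrays, 9 deviated together at a correlation over 0.1 (-0.216 to 0.562). Among them were all pairs of arrays numbered 2 (0.135 to 0.562) and no pair of arrays numbered 1 (at most 0.0751). Whether the numbers mark pairs was not tested, and the main fit left them out. A replicate block raised the calls over all genes in all 5 comparisons, for example from 2352 to 2774 in cytoplasmic RNA and from 385 to 472 for the difference. With a replicate block, 2, 4, 3, 6 and 2 members passed in the 5 comparisons (2, 4, 3, 5 and 2 without), Ireb2 in control cells being the one gained (adjusted p = 0.0441), and Fth1 kept its difference of -0.73 (adjusted p = 0.00264). Over all genes, array weights raised the calls from 2352 to 5557 in cytoplasmic RNA, from 3316 to 5160 in polysomal RNA, from 385 to 2838 for the difference, from 3819 to 6054 in control cells and from 2202 to 4672 in treated cells. A comparison's own 6 arrays gave 1100 in cytoplasmic and 5031 in polysomal RNA, no filter gave 242 for the difference, and leaving out an array gave 1502 to 3093, 2515 to 3726, 200 to 670, 2795 to 4175 and 1046 to 2648. The causes were not tested. Dim signal limits what Ftl1 and Slc40a1 can show.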

Other observations

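Heme and iron-sulfur cluster genes use the iron that the genes above import and store. Of 11 tested genes of heme synthesis and breakdown, 1 rose (10.1% of all genes tested did) and 1 fell (7.79%) with 4EGI-1 in cytoplasmic RNA, and 0 passed in polysomal RNA or for the difference of the effects by limma, with 1 of each of the latter at an unadjusted p under 0.05. Cpox, the coproporphyrinogen oxidase, rose in cytoplasmic RNA by 0.40 ± 0.09 (limma, adjusted p = 0.00414). Blvrb, a biliverdin reductase, fell there by 0.34 ± 0.11 (adjusted p = 0.0415).

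Of 24 tested genes of iron-sulfur cluster assembly, 1 fell in cytoplasmic RNA (7.79% of all genes), 1 rose (13%) and 3 fell (12.1%) in polysomal RNA, and 0 passed for the difference of the effects by limma, where 3 had an unadjusted p under 0.05. In polysomal RNA Ciao2a and Mms19, factors of the cytosolic assembly pathway, moved apart, by -0.57 ± 0.12 (limma, adjusted p = 0.00266) and 0.48 ± 0.11 (adjusted p = 0.00407). Bola1, a mitochondrial assembly factor, fell by 0.59 ± 0.15 (adjusted p = 0.0105). In control cells 7 of the 24 were higher (16.7% of all genes) and 4 lower (12.2%) in polysomal than in cytoplasmic RNA, with Glrx3, a cytosolic glutaredoxin, at 1.00 ± 0.18 (adjusted p = 0.000576) and Bola3, a mitochondrial assembly factor, at -1.15 ± 0.17 (adjusted p = 0.000167). Glrx3 and Bola3 were named after their values were seen.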
